A study of Homo sapiens with 46 samples.

Results

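The neuroectoderm regulators described here were 10 genes chosen by name: PAX6, LHX2, SIX3, OTX2, NES, SOX1, SOX11, ZIC1, ZIC2 and MEIS2. They were found by exact gene symbol in 4 deposited count tables, 1 for each cell type, and each table is built on the transcript assembly of its own cell type. At least 1 table held 9 of the 10, out of 21166 Ensembl genes in the 4 tables together, and 2 of them (NES and OTX2) were in all 4. The cells were of H1, an established line of human pluripotent stem cells (hPSC), either kept as such or turned in culture into ectoderm, endoderm or mesoderm. Ectoderm was made in medium with knockout serum replacement, A83-01 (an inhibitor of TGF-beta type I receptors), PNU-74654 (an inhibitor of beta-catenin and TCF binding) and dorsomorphin (an inhibitor of BMP type I receptors). Endoderm was made with WNT3A and Activin A, and mesoderm with VEGF, BMP4, bFGF and, on the first day, Activin A. Each cell type was lysed with NP-40 and separated into cytoplasm and nucleus, and the nucleus into nucleoplasm, its soluble part, and chromatin. This gave 46 libraries in 16 groups of 1 cell type and 1 fraction; 1 library represents the nucleoplasm of mesoderm and 3 represent each other group. Nothing in the labels says that replicates were separate cultures, so p-values measure the spread between these libraries, which may be technical. All 16 groups come from 1 cell line, and the labels name no genotype change.

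The neural plate forms from ectoderm when BMP and TGF-beta signalling is low. OTX2, SIX3, LHX2 and PAX6 are homeodomain transcription factors of the anterior neural plate, where SIX3, LHX2 and PAX6 also belong to the network that sets up the eye field. SOX1 and SOX11 are HMG-box factors of the SOXB1 and SOXC groups, ZIC1 and ZIC2 are zinc-finger factors, MEIS2 is a TALE homeodomain factor that binds DNA with PBX and HOX partners, and NES encodes nestin, an intermediate filament protein of neural progenitors. Several of them are not restricted to neural cells. OTX2, ZIC2 and SOX11 are also transcribed in pluripotent cells, and MEIS2 and ZIC1 in mesoderm derivatives.

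The tables differed in which of these genes they listed. The hPSC table held 4 of 10 (NES, OTX2, SOX11 and ZIC2) and lacked PAX6, LHX2, SIX3, SOX1, ZIC1 and MEIS2. Ectoderm held 9 and lacked SOX1. The endoderm table held 5 (MEIS2, NES, OTX2, PAX6 and ZIC2) and lacked LHX2, SIX3, SOX1, SOX11 and ZIC1. Mesoderm held 5 (MEIS2, NES, OTX2, SOX11 and ZIC1) and lacked PAX6, LHX2, SIX3, SOX1 and ZIC2. A gene that a table lacks has no count there, so no fold against that cell type is given.

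Library totals ran from 4990408 to 21298678 counts. In ectoderm cytoplasm 6 of 8 neuroectoderm markers were listed (SOX1 and HES5 were not). Their summed level was 907 to 1018 CPM (counts scaled to library total, with the same factor for every gene). In hPSC the 1 listed marker, OTX2, was at 52.7 to 63.0 CPM, so the sums cover different genes. All of these markers except HES5 and RAX are among the 10 genes described here, so their sum is no separate check of cell type. POU5F1, the pluripotency factor OCT4, was at 6.22 ± 1.27 CPM (SD, n = 3) in ectoderm cytoplasm, 2954 ± 544 in hPSC, 1765 ± 227 in endoderm and 892 ± 72.5 in mesoderm. Summed pluripotency markers reached 1884 to 2325 CPM in ectoderm (7 of 8 listed, NANOG not), 7923 to 8999 in hPSC (8 of 8), 5184 to 6216 in endoderm (8 of 8) and 2895 to 3044 in mesoderm (6 of 8). No endoderm marker of 9 was listed in ectoderm or hPSC, 9 were in endoderm (457 to 619 CPM summed), and 1 was in mesoderm. Mesoderm held 6 of 10 mesoderm markers at 336 to 368 CPM summed, against 216 to 271 for the 8 that endoderm held, 36.7 to 40.8 in hPSC (5) and 43.2 to 49.1 in ectoderm (5), with HAND1 at 132 ± 4.58 CPM and the primitive streak factor TBXT at 0.132 ± 0.0158 CPM. Markers of non-neural ectoderm and neural crest summed to 360 to 383 CPM in ectoderm (9 of 12 listed), 216 to 226 in hPSC (4 of 12), 1603 to 2094 in endoderm (7 of 12) and 1135 to 1272 in mesoderm (10 of 12); their part in the results below was not tested. In these bulk samples fewer cells that express a gene and less RNA per cell cannot be told apart, nor can the cell type be told apart from the assembly used for it.

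PAX6, OTX2 and MEIS2 were each listed as several isoforms, and the stretches that tell their isoforms apart are shown first because the isoform shares given further on are counted by them. All lie on the minus strand of GRCh38 and are annotated as coding in GENCODE 29, from which the bases were read. Capitals mark the alternative stretch and lower case the 15 bases on either side in the same transcript, written 5′ to 3′; the second line of each pair is the junction without it. The PAX6 stretch is an internal exon of 42 bases at chr11:31801871-31801912, known as exon 5a, which changes the DNA-binding paired domain. The OTX2 stretch is 24 bases at chr14:56804340-56804363, and the MEIS2 stretch is 21 bases at chr15:36895241-36895261.
PAX6 ENST00000640368: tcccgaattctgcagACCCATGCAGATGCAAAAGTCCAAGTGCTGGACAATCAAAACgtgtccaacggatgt
PAX6 ENST00000640610: tcccgaattctgcaggtgtccaacggatgt
OTX2 ENST00000554845: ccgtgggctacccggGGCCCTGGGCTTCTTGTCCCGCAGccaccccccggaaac
OTX2 ENST00000408990: ccgtgggctacccggccaccccccggaaac
MEIS2 ENST00000424352: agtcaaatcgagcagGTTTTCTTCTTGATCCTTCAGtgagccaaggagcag
MEIS2 ENST00000340545: agtcaaatcgagcagtgagccaaggagcag

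The eye-field factors PAX6, LHX2 and SIX3 were listed in ectoderm in every fraction, and 2 of them in no other table. PAX6 (chr11:31784779-31818062, minus strand, overlapped by the antisense genes ELP4 and PAUPAR) stood at 209, 187 and 215 CPM in the 3 cytoplasm libraries of ectoderm, and at 109, 111 and 128 in nucleus. Its nucleoplasm libraries read 134, 152 and 138 CPM, and its chromatin libraries 175, 178 and 180. Every cytoplasm library was thus above every nucleus library. Strand handling is not given in the sources used here, so reads of PAX6 and of its antisense partners cannot be told apart. In endoderm, PAX6 was at 2.29, 1.95 and 1.13 CPM in cytoplasm and between 0.348 and 3.23 CPM over all 12 libraries. The groups did not overlap in any fraction.

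LHX2 (chr9:124001670-124033301, plus strand) stood at 151, 137 and 151 CPM in ectoderm cytoplasm, 124, 121 and 121 in nucleus, 111, 108 and 102 in nucleoplasm and 108, 87.8 and 106 in chromatin. In CPM, the cytoplasm libraries were the highest and the chromatin libraries overlapped nucleoplasm. Annotated antisense genes (AC006450.3 and AC006450.2) overlap this locus too, as does AC006450.1 on the same strand. SIX3 (chr2:44941898-44946077, plus strand, no overlapping gene) was at 190, 170 and 215 CPM in cytoplasm, 145, 128 and 130 in nucleus, 153, 155 and 158 in nucleoplasm and 148, 130 and 164 in chromatin. All 3 of its cytoplasm libraries were above the 9 others.

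OTX2 (chr14:56799905-56810479, minus strand, no overlapping gene) was listed in all 4 cell types and was highest in ectoderm. Its cytoplasm libraries read 178, 160 and 171 CPM in ectoderm, 58.2, 52.7 and 63.0 in hPSC, 57.2, 53.1 and 57.9 in mesoderm, and 25.4, 34.4 and 38.1 in endoderm. In order of the means these were 170 ± 8.96, 58.0 ± 5.15, 56.1 ± 2.60 and 32.6 ± 6.55 CPM (SD, n = 3), and hPSC and mesoderm overlapped. In nucleus the values were 129, 111 and 128 CPM in ectoderm, 40.4, 27.2 and 32.0 in hPSC, 25.7, 34.0 and 27.9 in mesoderm and 7.99, 6.70 and 13.1 in endoderm. Ectoderm libraries were above every library of the other cell types in each of the 4 fractions, at 127, 146 and 133 CPM in nucleoplasm and 190, 157 and 182 in chromatin. The lowest ectoderm library was at 111 CPM and the highest of the others at 63.0.

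NES (chr1:156668763-156677397, minus strand, no overlapping gene) was also listed in all 4 cell types, and the cell type in which it was highest depended on the fraction. In cytoplasm it stood at 560, 490 and 618 CPM in ectoderm, 278, 291 and 306 in hPSC, 239, 207 and 239 in endoderm and 198, 181 and 189 in mesoderm. No cytoplasm group overlapped another in that order. In nucleus the order was another: mesoderm stood at 1235, 1552 and 1274 CPM, ectoderm at 971, 798 and 922, endoderm at 659, 874 and 800, and hPSC at 387, 433 and 409. Ectoderm and endoderm overlapped there, while mesoderm was above and hPSC below all others. Chromatin values were 860, 903 and 1019 CPM in mesoderm, 760, 797 and 790 in ectoderm, 642, 635 and 681 in endoderm and 611, 607 and 756 in hPSC. Mesoderm was again above ectoderm, and hPSC and endoderm overlapped. In nucleoplasm ectoderm read 563, 521 and 587 CPM, endoderm 561, 624 and 493, hPSC 394, 353 and 302, and the single mesoderm library 1077. The NES model of the endoderm table was not a listed transcript, and its length implied by the ratio of counts to TPM was 4039 bases, against 5768 in ectoderm, 5853 in hPSC and 5793 in mesoderm; the part of this difference in the endoderm values was not tested.

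SOX11 (chr2:5692667-5701385, plus strand, overlapped by AC108025.2 on the same strand) was higher in ectoderm than in hPSC and mesoderm, and highest in ectoderm chromatin. It stood there at 1503, 1582 and 1521 CPM, with 840, 746 and 790 in nucleoplasm, 856, 672 and 920 in cytoplasm and 551, 247 and 518 in nucleus. The nucleus libraries were the lowest and the most spread, with replicate 2 below the other two. In hPSC, SOX11 read 95.1, 110 and 113 CPM in cytoplasm, 87.3, 81.2 and 72.4 in nucleus, 88.5, 97.3 and 86.5 in nucleoplasm and 121, 115 and 113 in chromatin. Mesoderm was at 76.5, 88.2 and 84.7 CPM in cytoplasm, 71.6, 97.8 and 82.2 in nucleus and 95.2, 81.4 and 113 in chromatin. Each ectoderm library was above each hPSC and mesoderm library of its fraction. The part of AC108025.2 reads in these values was not tested. The SOX11 model of mesoderm was not a listed transcript and had an implied length of 7452 bases, against 9522 in ectoderm and 10327 in hPSC. SOX1 (chr13:112067647-112070488, plus strand) was in no table.

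ZIC2 (chr13:99981772-99986773, plus strand) did not set ectoderm above hPSC in any fraction: the groups overlapped in cytoplasm, and in the other fractions ectoderm lay below hPSC and above endoderm. Its cytoplasm libraries read 136, 90.8 and 127 CPM in ectoderm, 118, 116 and 106 in hPSC and 108, 112 and 97.0 in endoderm. In nucleus they read 116, 92.9 and 110 CPM in ectoderm, 152, 134 and 132 in hPSC and 37.6, 68.0 and 65.3 in endoderm, with no overlap. In nucleoplasm ectoderm read 105, 85.2 and 99.6 CPM, between hPSC at 117 to 134 and endoderm at 51.1 to 56.3. In chromatin ectoderm read 116, 97.6 and 114 CPM, between hPSC at 131 to 161 and endoderm at 75.2 to 95.0. ZIC1 (chr3:147393422-147510293, plus strand, overlapped by ZIC4 on the other strand) was close to the limit of detection. Ectoderm cytoplasm held it at 0.421, 0.166 and 0.487 CPM and mesoderm cytoplasm at 0.912, 0.817 and 1.26 CPM. These values rest on 6, 3 and 9 counts in ectoderm and 14, 14 and 17 in mesoderm; over all fractions a library held 2 to 12 counts in ectoderm and 1 to 17 in mesoderm, while 3 counts, the limit that a count of 0 allows, are worth 0.141 to 0.388 CPM in ectoderm. That limit covers counting error only.

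MEIS2 (chr15:36889204-37101299, minus strand, overlapped by the antisense gene AC078909.1 and by MIR8063 and RF00019 on the same strand) was higher in mesoderm than in ectoderm cytoplasm and low in endoderm. Its cytoplasm libraries stood at 60.8, 64.5 and 53.8 CPM in mesoderm, 39.4, 36.2 and 40.9 in ectoderm and 3.54, 2.68 and 2.32 in endoderm. The 3 groups did not overlap. In nucleus mesoderm was at 31.7, 38.2 and 38.0 CPM, ectoderm at 21.3, 16.2 and 21.3, and endoderm at 0.269, 0.754 and 0.869. In nucleoplasm ectoderm read 32.0, 31.4 and 32.9 CPM, above the single mesoderm library at 23.1, and in chromatin ectoderm (38.0, 36.7 and 36.3) overlapped mesoderm (54.9, 37.3 and 62.0).

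**Figure D1:**
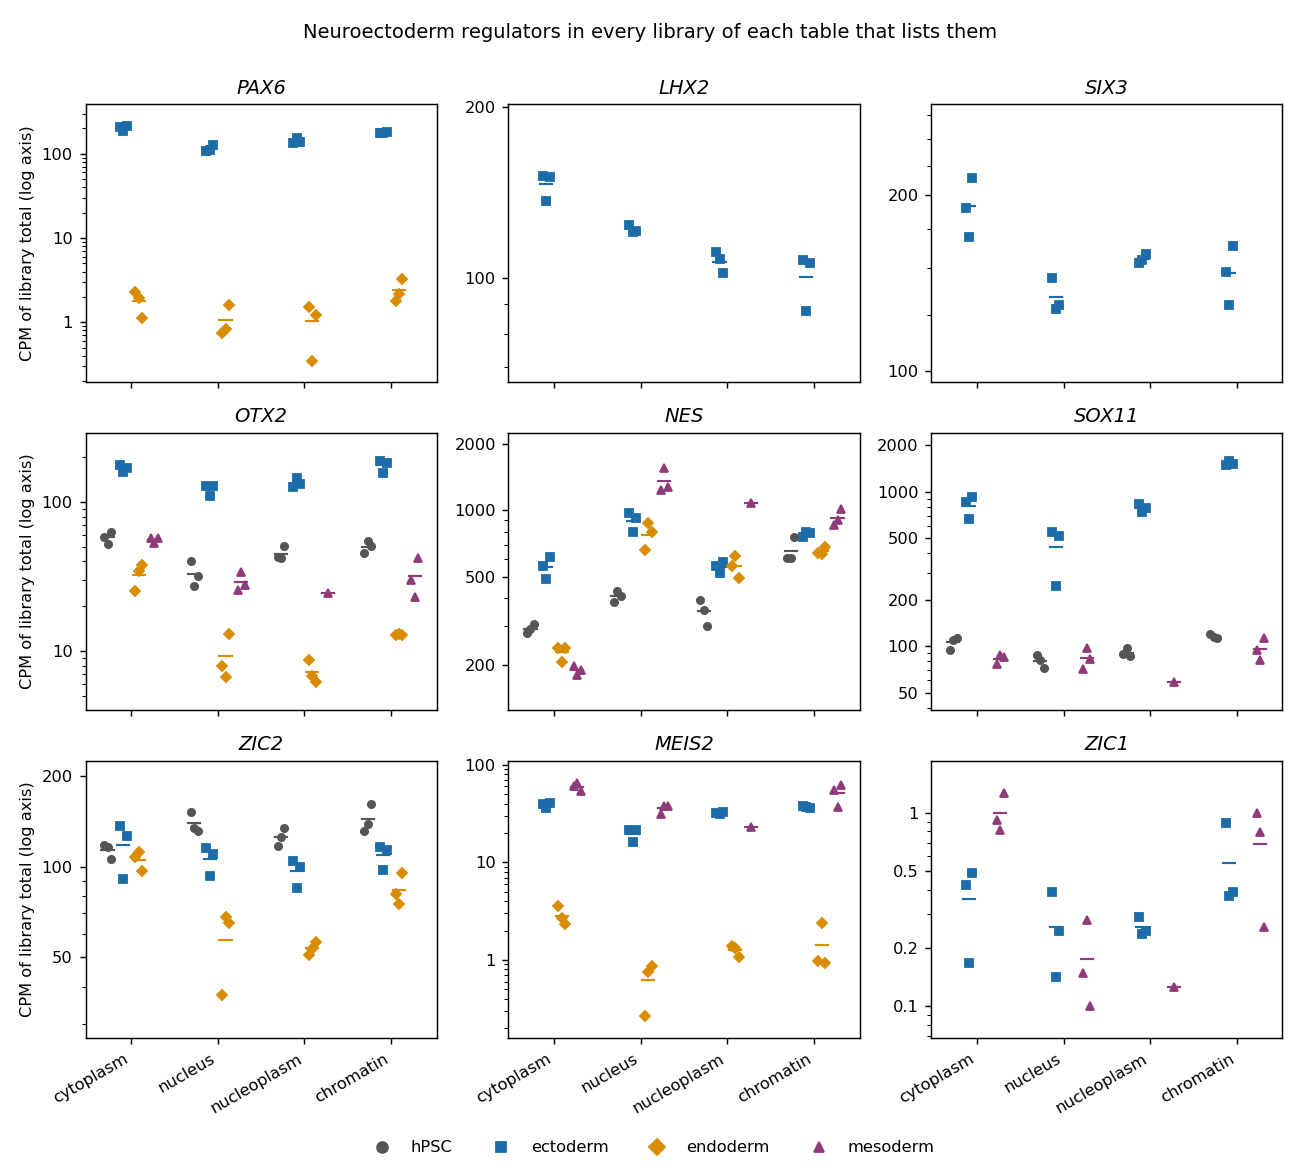
Level of each listed regulator (CPM of the library total, log axis) in every library, by cell type (symbols) and fraction, with 1 point a library and a short line at each group's mean. OTX2 libraries of ectoderm lie above those of the other cell types in each fraction. SOX11 libraries of ectoderm lie above those of hPSC and mesoderm, while SOX11 is not listed in endoderm. NES of mesoderm is lowest in cytoplasm and highest in nucleus, and PAX6 of endoderm stays at or under 3.23 CPM.

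Levels of different genes can be compared only per length, for which the authors' TPM (a length-corrected share of the library) summed over a gene's isoforms was used. In ectoderm cytoplasm the order was ZIC2 at 142 ± 39.5 TPM, NES at 122 ± 28.0, PAX6 at 112 ± 13.5, SOX11 at 109 ± 29.3, OTX2 at 99.4 ± 14.0, SIX3 at 91.4 ± 20.2 and LHX2 at 79.8 ± 12.4 (SD, n = 3). Neighbours in that order lay within their SDs of each other. MEIS2 followed at 14.6 TPM and ZIC1 at 1.13 TPM, both below the rest. In ectoderm chromatin SOX11 stood first at 350 ± 20.6 TPM, ahead of NES at 295 ± 20.1, ZIC2 at 230 ± 40.3 and OTX2 at 185 ± 32.3. PAX6 was at 164 ± 16.9 TPM, SIX3 at 122 ± 22.5 and LHX2 at 96.0 ± 18.3. Both orders depend on the lengths of the assembled models. The ZIC2 model of ectoderm was not a listed transcript and had an implied length of 1033 bases. For PAX6, the model matched to ENST00000640368 had 2680 bases, against 6975 in GENCODE 29. The part of model length in these orders was not tested.

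Between ectoderm and hPSC, SOX11, OTX2 and NES were higher in ectoderm and ZIC2 did not rise in any fraction. Only these 4 genes are in both tables. Differences are log2 fold changes from edgeR's quasi-likelihood test, with p-values adjusted by Benjamini-Hochberg over all genes tested and called below 0.05. In cytoplasm SOX11 rose by 2.82 ± 0.14 (log2, SE; adjusted p = 1.13e-07), OTX2 by 1.44 ± 0.11 (adjusted p = 1.42e-06) and NES by 0.81 ± 0.12 (adjusted p = 0.000125). ZIC2 differed by -0.07 ± 0.13 (adjusted p = 0.635). That is 3 of 4 called, in a comparison that called 73.3% of the 13092 genes tested, 36.6% as higher and 36.6% as lower, so a call as such is common here. The median difference of the 4 genes was 1.13, against 0.0016 over all genes.

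The other fractions gave the same directions for SOX11, OTX2 and NES. In nucleus, where 63.9% of genes were called, 4 of 4 passed: SOX11 by 2.50 ± 0.23 (adjusted p = 1.27e-05), OTX2 by 1.97 ± 0.15 (adjusted p = 3.7e-06), NES by 1.21 ± 0.14 (adjusted p = 5.13e-05), and ZIC2 by -0.31 ± 0.11 (adjusted p = 0.0272). The ZIC2 call was lost when ectoderm replicate 1 or 3, or any 1 of the 3 hPSC replicates, was left out. In nucleoplasm, where 79.3% were called, the differences were 3.03 ± 0.09 for SOX11 (adjusted p = 5.21e-15), 1.48 ± 0.08 for OTX2, 0.57 ± 0.10 for NES and -0.47 ± 0.09 for ZIC2 (adjusted p = 0.000104), and 4 of 4 passed. Chromatin, with 69.8% called, had SOX11 at 3.76 ± 0.12 (adjusted p = 9.45e-07), OTX2 at 1.85 ± 0.11 and ZIC2 at -0.36 ± 0.11 (adjusted p = 0.0167), so 3 of 4 passed. NES did not pass there, at 0.29 ± 0.12 (adjusted p = 0.0667), but passed at 0.55 on the authors' TPM (limma, adjusted p = 0.015) and when hPSC chromatin replicate 3 was left out. The ZIC2 call in chromatin was lost without ectoderm replicate 2 or 3 and on TPM (-0.17, adjusted p = 0.456).

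**Figure D2:**
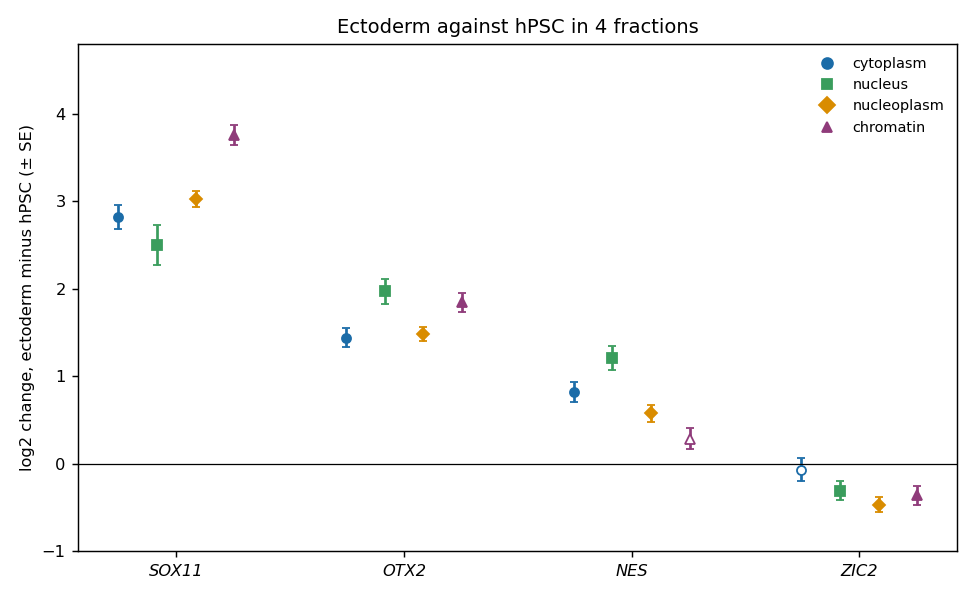
Log2 difference of ectoderm against hPSC (edgeR, points with SE bars) for the 4 regulators present in both tables, in each of the 4 fractions; filled symbols passed an adjusted p of 0.05 and open symbols did not. SOX11 runs from 2.50 in nucleus to 3.76 in chromatin, and ZIC2 lies at or below 0 in all 4.

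Endoderm and mesoderm cytoplasm were set against the same hPSC libraries, so these comparisons share controls with each other and with the one above. In endoderm, OTX2 was lower by 0.99 on the log2 scale (log2 -0.99 ± 0.16, adjusted p = 0.000665) and NES was at -0.52 ± 0.12 (adjusted p = 0.00478), so 2 of 3 passed where 50.9% of genes were called. ZIC2 was at -0.27 ± 0.12 (adjusted p = 0.0738). On the authors' TPM the NES difference was 0.27 (limma, adjusted p = 0.17), beside a shift of 0.27 in the median of all genes relative to the count fit, so its direction was not the same on both scales. Mesoderm had NES at -0.71 ± 0.10 (adjusted p = 0.000187) and SOX11 at -0.43 ± 0.12 (adjusted p = 0.011), 2 of 3 where 66.0% of genes were called, and OTX2 was at -0.13 ± 0.10 (adjusted p = 0.283). The SOX11 difference was 0.26 on TPM (adjusted p = 0.25), beside a shift of 0.18 in the median of all genes, and its call was lost without mesoderm replicate 1 (adjusted p = 0.053).

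Set directly against endoderm in cytoplasm, ectoderm was higher in PAX6 by 6.92 ± 0.17 (log2, SE; adjusted p = 5.11e-11), MEIS2 by 3.87 ± 0.16 (adjusted p = 1.26e-09), OTX2 by 2.49 ± 0.14 (adjusted p = 1.8e-08) and NES by 1.39 ± 0.10 (adjusted p = 1.27e-07). ZIC2 was at 0.26 ± 0.12 (adjusted p = 0.0589). This was 4 of 5 called, against 74.0% of all genes tested. PAX6 rests on 18 to 42 counts in an endoderm cytoplasm library. Against mesoderm, where 68.2% of genes were called, 4 of 4 passed, with ZIC1 counted apart. SOX11 was higher in ectoderm by 3.28 ± 0.12 (adjusted p = 1.86e-10), OTX2 by 1.60 ± 0.08 and NES by 1.55 ± 0.09, while MEIS2 was lower at -0.62 ± 0.09 (adjusted p = 6.09e-05). The ZIC1 value was -1.45 ± 0.48 (adjusted p = 0.017), a call that was lost without ectoderm replicate 2 or mesoderm replicate 3, and it was at -0.23 on TPM (adjusted p = 0.2). ZIC1 passed the filter on low counts only through mesoderm and so had to be lower in ectoderm.

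Between cytoplasm and nucleus of the same cell type, NES was lower in cytoplasm in all 4 cell types. The differences were -0.56 ± 0.13 in hPSC (adjusted p = 0.00211), -1.02 ± 0.11 in ectoderm (adjusted p = 5.33e-06), -2.48 ± 0.15 in endoderm (adjusted p = 3.05e-09) and -2.74 ± 0.18 in mesoderm (adjusted p = 8.06e-07). NES was the only gene of the list called lower in cytoplasm outside hPSC, where ZIC2 was too. In ectoderm, MEIS2 was higher in cytoplasm by 0.66 ± 0.10 (adjusted p = 0.000117), SOX11 by 0.59 ± 0.18 (adjusted p = 0.0146) and PAX6 by 0.47 ± 0.10 (adjusted p = 0.00218). LHX2 at -0.08, ZIC2 at -0.19, OTX2 at 0.14 and SIX3 at 0.18 did not pass, so 4 of 8 were called against 54.3% of all genes. These fits scaled libraries by TMM, set by the bulk of genes, and CPM uses plain totals. Mean CPM had the other direction for LHX2 (146 in cytoplasm, 122 in nucleus) and ZIC2 (118 and 106). OTX2 and SIX3 passed with plain library totals (0.47 and 0.52) and without ectoderm nucleus replicate 2. ZIC1 did not pass the filter on low counts there.

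In hPSC 4 of 4 were called, against 65.6% of genes: beside NES, OTX2 was at 0.74 ± 0.14 (adjusted p = 0.000339), SOX11 at 0.33 ± 0.11 (adjusted p = 0.0145) and ZIC2 at -0.36 ± 0.11 (adjusted p = 0.0119). The SOX11 call was lost without hPSC cytoplasm replicate 2 or nucleus replicate 3 and its TPM difference was -0.061, the ZIC2 call was lost without cytoplasm replicate 3, and OTX2 did not pass on TPM (0.33, adjusted p = 0.095); TPM moved the median of all genes by -0.29 here. In endoderm 2 of 4 were called, against 69.9%, with MEIS2 counted apart: beside NES, OTX2 was at 1.10 ± 0.24 (adjusted p = 0.000731), with PAX6 at 0.05 and ZIC2 at 0.21 not called. ZIC2 passed there with plain library totals (0.89) and on TPM (0.53). In mesoderm 3 of 4 were called, against 63.3%, with ZIC1 counted apart: beside NES, OTX2 was at 1.04 ± 0.19 and MEIS2 at 0.84 ± 0.17, with SOX11 at 0.09. ZIC1 in mesoderm (2.60 ± 0.67) and MEIS2 in endoderm (1.50 ± 0.45) were also called. Both rest on few counts and were therefore counted apart. A nucleus library held 1 to 2 counts of ZIC1 in mesoderm and 4 to 13 of MEIS2 in endoderm. ZIC1 in mesoderm passed the filter on low counts only through other fractions, cytoplasm among them. Its higher level in cytoplasm than in nucleus was thus largely set by that filter and is no result of its own. With ZIC1 and MEIS2 included, 4 of 5 were called in mesoderm and 3 of 5 in endoderm. On TPM the mesoderm differences were -0.10 for OTX2, -0.16 for MEIS2 and -0.99 for SOX11 (limma, adjusted p = 0.00048), beside a shift of -0.82 in the median of all genes relative to the count fit.

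**Figure D3:**
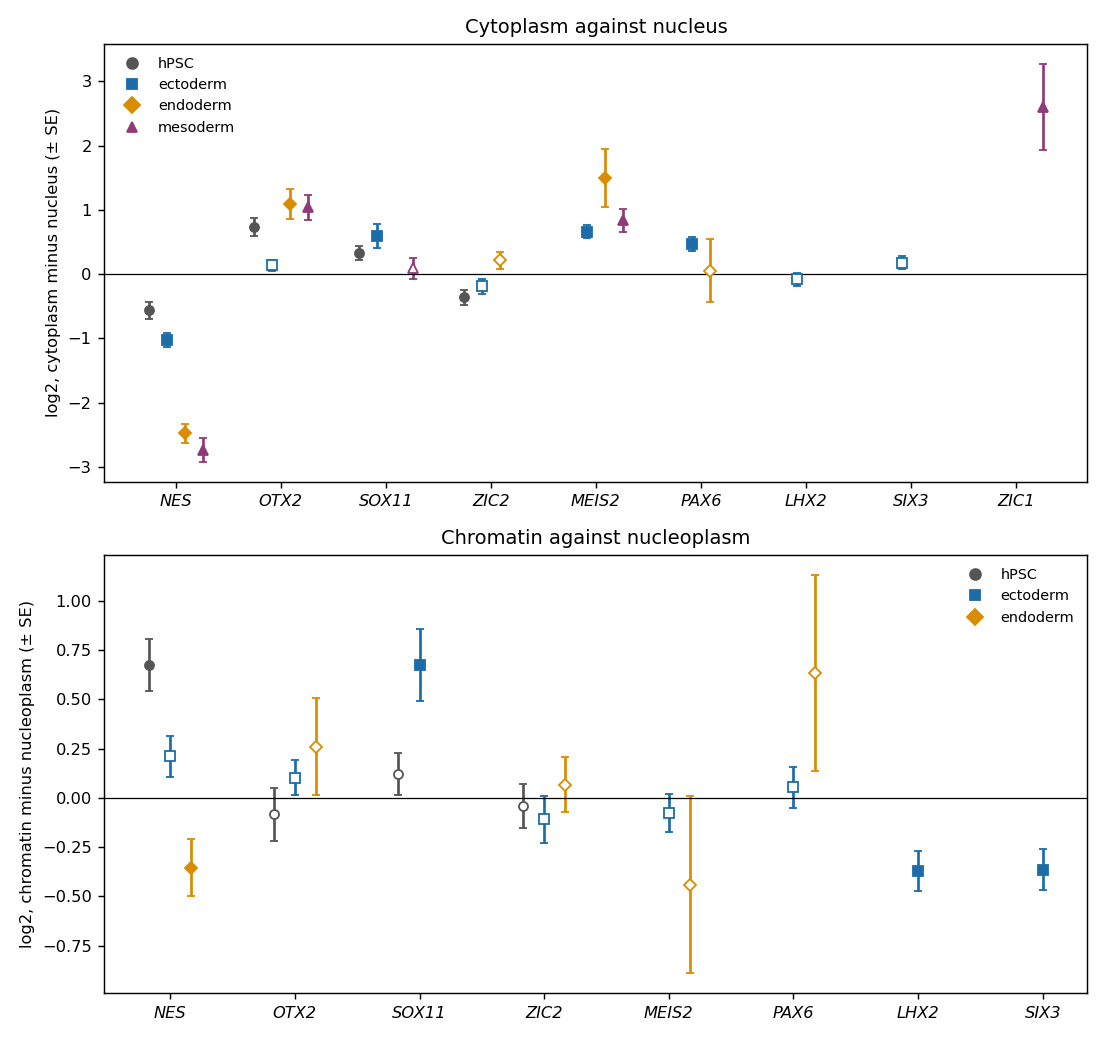
Log2 differences (edgeR, points with SE bars) of cytoplasm against nucleus and of chromatin against nucleoplasm for each listed regulator within each cell type; filled symbols passed an adjusted p of 0.05 and open symbols did not. NES lies below 0 for cytoplasm against nucleus in all 4 cell types, at -0.56 in hPSC and -2.74 in mesoderm.

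Chromatin was set against nucleoplasm in hPSC, ectoderm and endoderm. In ectoderm, SOX11 was higher in chromatin by 0.68 ± 0.18 (adjusted p = 0.00907), and LHX2 at -0.37 ± 0.10 (adjusted p = 0.00935) and SIX3 at -0.36 ± 0.10 (adjusted p = 0.0115) also passed, so 3 of 8 were called against 44.4% of genes. The LHX2 and SIX3 directions flipped on TPM (0.37 and 0.38), a scale on which the median of all genes moved by 0.58, and both calls were lost with plain library totals (-0.088 and -0.081). Each was also lost without chromatin replicate 1 or 2 or nucleoplasm replicate 2, with adjusted p-values of 0.0658 to 0.161, and LHX2 without chromatin replicate 3 too (0.08). In hPSC only NES of the 4 passed, at 0.68 ± 0.13 (adjusted p = 0.00268), where 30.6% of genes were called; on TPM 4 of 4 passed, with the median of all genes 0.47 higher. In endoderm NES alone of the 5 passed, at -0.35 ± 0.14 (adjusted p = 0.0496), where 53.7% were called, but it was at 0.22 with plain library totals and 0.30 on TPM, and the call was lost on leaving out any chromatin replicate or nucleoplasm replicate 1 or 2 (adjusted p = 0.0839 to 0.202). Mesoderm nucleoplasm had 1 library and this comparison was not made there.

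Whether the cytoplasm to nucleus difference itself differed from that of hPSC was tested by the interaction of cell type and fraction. For NES it was more negative in endoderm by 1.86 on the log2 scale (log2 -1.86 ± 0.21, adjusted p = 0.000337) and in mesoderm at -2.10 ± 0.16 (adjusted p = 4.99e-07), while ectoderm was at -0.31 (adjusted p = 0.138). Of the other genes, ZIC2 in endoderm was at 0.62 ± 0.20 (adjusted p = 0.038) and OTX2 in ectoderm at -0.44 ± 0.17 (adjusted p = 0.0442). The members called were 1 of 4 in ectoderm, 2 of 3 in endoderm and 1 of 3 in mesoderm, where 49.1%, 25.3% and 37.9% of all genes were called. The OTX2 call was lost on leaving out any of 9 of the 12 libraries, and the ZIC2 call on leaving out any of 7. On TPM the OTX2 value was 0.14, beside a shift of 0.34 in the median of all genes. The endoderm and mesoderm tests share the hPSC libraries and were added after the data were seen.

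Isoforms matched to PAX6 transcripts with and without exon 5a were both counted in each ectoderm fraction. The match is the deposited table's, and the assembled models need not have the ends of the listed transcripts: the implied length was 2680 bases for ENST00000640368 and 1598 for ENST00000419022, against 6975 and 6888 bases in GENCODE 29. Whether a model holds a stretch was taken from the listed transcript and was not read from the model. Of counts on isoforms matched to a listed transcript, those with exon 5a made up 56.3% ± 2.06 in cytoplasm (SD, n = 3), 60.7% ± 6.75 in chromatin, 57.6% ± 4.21 in nucleoplasm and 49.8% ± 1.48 in whole nucleus. Nucleus libraries were the lowest, at 48.4% to 51.3%. PAX6 counts that could not be placed with or without the exon are left out of these shares. They were 113, 427 and 292 of 845, 2358 and 2083 counts in nucleus. In nucleoplasm they were 236, 304 and 544 of 1852, 1287 and 2252. Their part in the differences between fractions was not tested. Single isoforms held smaller and more spread shares in cytoplasm, where ENST00000640368, with the exon, had 26.5% ± 10.2 and ENST00000639916, without it, 21.4% ± 3.19. ENST00000419022, also with the exon, had 20.1% ± 9.36 in cytoplasm and 6.67% ± 5.97 in nucleus. The rule that assigned reads to isoforms is not given in the sources used here, so these shares are less certain than the gene sums.

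For OTX2, ENST00000408990, without the 24-base stretch, held most counts in both cell types: 81.5% ± 3.75 in hPSC cytoplasm and 78.5% ± 1.35 in ectoderm cytoplasm. Here too the implied lengths differed from the listed ones, at 2002 bases against 1082 for ENST00000408990 and 2032 against 908 for ENST00000554845 in hPSC. The second isoform was a different one in each table. In hPSC it was ENST00000554845, with the stretch, at 18.5% ± 3.75 in cytoplasm, 15.6% ± 3.17 in chromatin, 15.0% ± 6.24 in nucleoplasm and 17.6% ± 5.24 in whole nucleus. The second ectoderm isoform was ENST00000672264. It held 21.5% ± 1.35 in cytoplasm, 15.6% ± 1.75 in chromatin, 18.8% ± 2.13 in nucleoplasm and 25.4% ± 6.61 in whole nucleus. Counts of this ectoderm isoform could not be placed with or without the stretch, so whether it holds the stretch is not known. Since each table has its own assembly, the isoforms of 2 cell types were not tested against each other. For MEIS2 in ectoderm, isoforms with the 21-base stretch held 40.9% ± 7.69 of the matched counts in cytoplasm, 33.7% ± 8.75 in chromatin, 44.8% ± 4.42 in nucleoplasm and 44.1% ± 12.3 in whole nucleus, and these ranges overlapped. Many MEIS2 counts could not be placed with or without the stretch and are left out of these shares. They were 280, 222 and 201 of 513, 496 and 464 counts in chromatin, and 198, 155 and 203 of 562, 652 and 756 in cytoplasm.

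The isoform tests within ectoderm called few of them. Of 17 isoforms holding at least 10% of a gene in some fraction, from 8 genes, 1 passed between cytoplasm and nucleus (the single NES isoform, at -1.04, adjusted p = 0.00014) and 2 between chromatin and nucleoplasm (the single LHX2 and SIX3 isoforms, each at -0.47, adjusted p = 0.021), where 13.7% and 13.9% of all 41708 isoforms were called. The LHX2 and SIX3 isoform values turned to 0.37 and 0.38 on TPM, the LHX2 call was lost without any 1 of the 6 libraries, and the SIX3 call without chromatin replicate 1 or 2 or nucleoplasm replicate 1 or 3 (adjusted p = 0.0568 to 0.0779). None of the 5 PAX6, 2 OTX2 and 5 MEIS2 isoforms passed, the lowest adjusted p being 0.138. In simulated data of this size, with the changed isoforms drawn at random from all 41708, the test recovered 17% of those changed 4-fold. The rate for the 17 isoforms named here was not measured, so a miss is not read as no change.

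**Figure D4:**
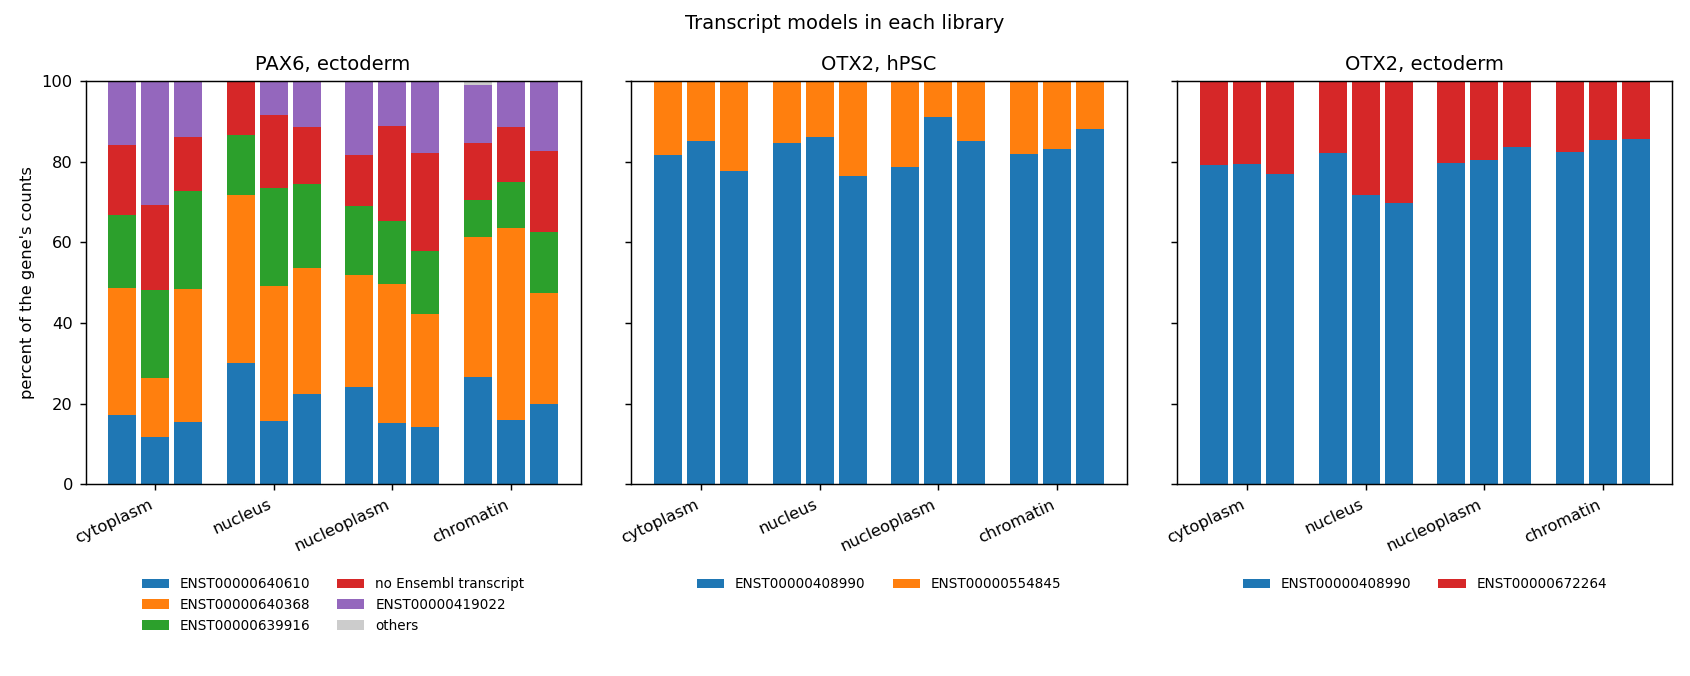
Share of a gene's counts (percent) held by each isoform of PAX6 in ectoderm and of OTX2 in hPSC and ectoderm, with 1 stacked bar for each of the 3 libraries of a fraction. ENST00000408990 holds on average 78.5% of OTX2 counts in ectoderm cytoplasm and 81.5% in hPSC cytoplasm, while PAX6 has 5 isoforms of 6 that each hold at least 10% in some fraction.

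The other genes of neural plate and progenitors rose more often than they fell. Of 30 such genes 16 could be tested between ectoderm and hPSC in cytoplasm, and 11 rose and 2 fell, where 36.6% of all genes were called higher and 36.6% lower; their median was 1.80 against 0.0016 over all genes. Of the same 16, 11 rose and 5 fell in nucleus, 11 and 5 in nucleoplasm, and 10 and 5 in chromatin. In these 3 fractions 63.9%, 79.3% and 69.8% of all genes were called in either direction, so a call as such is common there too. The genes that rose were not the same in each fraction. SFRP1 and NCAM1 were called higher in cytoplasm and lower in nucleus. LIN28A, also counted above as a pluripotency marker, was called higher in nucleus and lower in nucleoplasm and chromatin. FEZF1, a forebrain zinc-finger factor, went from 5.62 ± 0.775 CPM in hPSC to 374 ± 6.69 in ectoderm (log2 5.96 ± 0.15, adjusted p = 5.35e-09). OTX1, the paralog of OTX2, rose by 3.91 ± 0.19, SOX21 by 3.53 ± 0.15 and the fatty acid binding protein gene FABP7, a radial glia marker, by 3.20 ± 0.23. A further 7 of the 30 were listed in ectoderm alone, among them RAX, SIX6, LHX5 and PAX3. RAX, an eye-field factor, stood at 262 ± 7.93 CPM there. HES5, FEZF2 and EMX2 were in no table.

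Paralogs of the members did not all move with them. Of the 6 SOXB and SOXC genes 5 were tested in cytoplasm and 3 rose, in a comparison that called 73.3% of all genes: SOX21 as above, SOX4 from 112 ± 29.2 to 298 ± 52.1 CPM (log2 1.29 ± 0.19, adjusted p = 0.000153) and SOX2 from 190 ± 8.42 to 396 ± 62.1 CPM (log2 0.94 ± 0.12, adjusted p = 5.06e-05). ZIC5, a paralog of ZIC1 and ZIC2, fell from 60.2 ± 2.23 to 40.4 ± 7.97 CPM (log2 -0.70 ± 0.13, adjusted p = 0.000614; -0.51 on TPM, adjusted p = 0.054). Of 5 MEIS and PBX genes 4 were tested and 3 rose, with MEIS3 at 2.43 ± 0.12, PBX2 at 0.59 ± 0.11 and PBX3 at 0.57 ± 0.13. Of 10 neuron differentiation genes 2 were tested: MAP2, a dendrite microtubule protein gene, rose by 6.44 ± 0.15 and TUBB3, a neuronal tubulin gene, fell by 2.38 on the log2 scale. NEUROG2, a proneural factor, was listed in ectoderm alone at 95.8 ± 3.40 CPM.

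**Figure D5:**
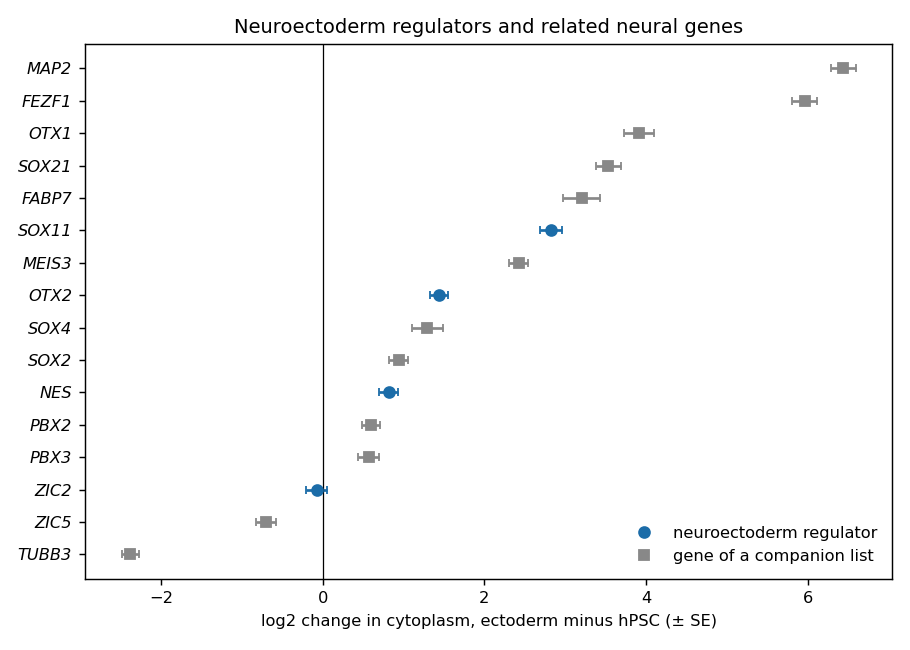
Log2 change of ectoderm against hPSC in cytoplasm (edgeR, points with SE bars) for the 4 testable regulators (circles) and the genes named from the related lists (squares), ordered by size. MAP2 lies highest at 6.44 and TUBB3 lowest at -2.38, with SOX11 at 2.82, OTX2 at 1.44, NES at 0.81 and ZIC2 at -0.07 between them.

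Over the 16 group means, the genes whose log2(CPM + 1) pattern was most like that of OTX2 were MEF2D (Pearson r = 0.967) and C1orf50 (r = 0.966), out of 10207 genes in all 4 tables. For NES they were MICA (r = 0.871) and SEMA4F (r = 0.854). These are descriptions over groups that share cell types, fractions and assemblies, and no p is attached.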

How the data were processed

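RNA of 4 cell types and 4 fractions was sequenced as 46 libraries. The authors deposited, per the file headers, whole-number counts per assembled transcript and, in separate tables, TPM (a share of the library corrected for length). The submitters' processing notes name STAR, RSEM and hg38, with no version; the counts may therefore be rounded estimates. The assignment of reads to isoforms and the handling of strand are not given in the sources used here. Columns coded "Nei" were read as nucleus, the mesoderm nucleoplasm column was tied to its group only, and 1 ectoderm column matched no sample and was not used. The combined assembly, which holds ectoderm libraries only, served as an alternative for fraction comparisons.

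Counts of transcripts with the same Ensembl gene were summed and divided by the library total. Group tests used edgeR 4.0.16 (quasi-likelihood, TMM, filterByExpr with a minimum count of 10, two-sided, Benjamini-Hochberg over all features, 0.05) in R 4.3.3. Tests between cell types used the 2 groups compared and genes in both tables. Tests between fractions, also of isoforms, used all libraries of the cell type, whose fractions shared an estimate of the spread. In mesoderm this included the single nucleoplasm library. Interactions used the cytoplasm and nucleus libraries of both cell types and genes in both tables. Alternatives were DESeq2 1.42.0, plain library totals, no filter, a replicate block, limma 3.58.1 on log2(TPM + 1), genes in all 4 tables, the combined assembly, and each library left out. Interactions of endoderm and mesoderm with hPSC were added after the data were seen. Replicates were compared in 45 pairs, of which 0 were identical, with a chi-squared per degree of freedom of at least 14.27. On simulated data the gene test recovered 79% of 2-fold and 100% of 4-fold changes among 13092 genes (ectoderm against hPSC, cytoplasm), and the isoform test 1% and 17% among 41708 isoforms (cytoplasm against nucleus, ectoderm).

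The members and lists were chosen with earlier results of these data known. Named beside the members were isoforms with at least 10% of a member's counts in any fraction, up to 4 called genes per related list by the size of the change in ectoderm against hPSC cytoplasm, and 2 genes of most similar pattern for each member in all 4 tables (at least 10 CPM in a group). Positions and sequences are from GENCODE 29 (GRCh38). Implied lengths are counts over TPM, scaled by listed transcripts. A few genes the rule named are not reported here.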

Additional observations from a re-analysis of the deposited data

Results flagged for a closer look

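The cytoplasm to nucleus difference (log2, from counts) of 3 of these genes differed between a cell type and hPSC by edgeR's interaction test, which is what singled them out. For NES it was lower by 1.86 in endoderm (log2 -1.86 ± 0.21, adjusted p = 0.000337) and at -2.10 ± 0.16 in mesoderm (adjusted p = 4.99e-07). For ZIC2 in endoderm it was 0.62 ± 0.20 (adjusted p = 0.038), and for OTX2 in ectoderm -0.44 ± 0.17 (adjusted p = 0.0442). The NES model of endoderm was shorter than in the other tables, with an implied length of 4039 bases against 5853 in hPSC; that of mesoderm, at 5793 bases, was not. The part of the model in these differences was not tested.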

How the results depend on the processing

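Over 115 results on these genes, 1355 alternative values were computed, of which 1217 kept their direction and side of the threshold, 67 lost a call, 53 gained one and 18 changed sign with at least one value called; a further 65 sign changes had neither value called. DESeq2 lost 0 calls and gained 6 of 115. Leaving out a library lost 51 of 749 and gained 8, and the cause was not tested.

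Of the numbers of regulators called (here with ZIC1 and MEIS2 wherever they were tested), the fit on genes in all 4 tables gave 2 for ectoderm against hPSC in nucleus, 2 in nucleoplasm and 1 in chromatin, 1 for mesoderm against hPSC, 2 for ectoderm against endoderm and 2 against mesoderm, since fewer of the genes are in all 4 tables. On the authors' TPM the numbers were 1 for endoderm and 1 for mesoderm against hPSC; 2 in hPSC and 2 in mesoderm for cytoplasm against nucleus; 4 in hPSC, 6 in ectoderm and 3 in endoderm for chromatin against nucleoplasm; 4 and 7 for the isoforms in these 2 comparisons; and 2 for the mesoderm interaction. Plain library totals gave 2 in hPSC and 2 in endoderm for chromatin against nucleoplasm, 6 for isoforms between cytoplasm and nucleus and 0 for the ectoderm interaction. DESeq2 gave 3 for those isoforms and 2 for that interaction. No filter gave 1 in ectoderm and 0 in endoderm for chromatin against nucleoplasm. Leaving out 1 library gave 1 to 2 for mesoderm against hPSC, 1 to 3 in ectoderm and 0 to 1 in endoderm for chromatin against nucleoplasm, 1 to 2 and 0 to 1 for the isoforms, and 0 to 1, 1 to 2 and 1 to 2 for the interactions of ectoderm, endoderm and mesoderm.

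Signs changed on TPM for NES in endoderm against hPSC (0.27), SOX11 in mesoderm against hPSC (0.26), SOX11 in hPSC (-0.061) and MEIS2 (-0.16), OTX2 (-0.10) and SOX11 (-0.99) in mesoderm between cytoplasm and nucleus; for ZIC2 (0.54) and OTX2 (0.48) in hPSC, ZIC2 (0.64), LHX2 (0.37), MEIS2 (0.76) and SIX3 (0.38) in ectoderm and NES (0.30) in endoderm between chromatin and nucleoplasm, with the isoforms of LHX2 (0.37), ZIC2 (0.64) and SIX3 (0.38); and for the OTX2 interaction (0.14). With plain library totals NES in endoderm between chromatin and nucleoplasm was at 0.22. These scalings moved the median of all genes by -0.82 to 0.71, and in these comparisons the share of called features that were higher by over 10 points. Against hPSC, the nucleus of ectoderm went from 49.1% to 28.8% on TPM, endoderm cytoplasm from 51.2% to 74.7% (65.9% with plain totals) and mesoderm cytoplasm from 50.9% to 64.4%. Between cytoplasm and nucleus, hPSC went from 53.7% to 34.1%, mesoderm from 50.4% to 10.7%, ectoderm from 50.7% to 75.6% (plain totals 76.0%), its isoforms from 51.5% to 69.9% (75.0%), and endoderm from 49.1% to 62.9% (71.6%). Between chromatin and nucleoplasm, hPSC went from 56.3% to 96.7% (86.5%), endoderm from 42.8% to 75.9% (73.7%), ectoderm from 41.8% to 96.3% (70.6%) and its isoforms from 32.5% to 95.6% (68.9%, and 46.6% with DESeq2). The interactions went from 55.6% to 86.2% for ectoderm, 51.2% to 93.9% (93.1%) for endoderm and 66.2% to 5.48% (39.5%, and 56.0% with DESeq2) for mesoderm.

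Numbers of all features called differed by over 1.5 times in 5 comparisons. Isoforms between cytoplasm and nucleus went from 5694 to 10812 (DESeq2), 3545 (TPM) and 3331 or 3687 without ectoderm cytoplasm replicate 1 or 3. Isoforms between chromatin and nucleoplasm went from 5789 to 10616 (DESeq2), 15936 (TPM) and 3216 to 3711 without any 1 library. Genes between chromatin and nucleoplasm of hPSC went from 4290 to 7714 (TPM) and 2600 without nucleoplasm replicate 1, genes between cytoplasm and nucleus of ectoderm from 8483 to 5338 (TPM), and the endoderm interaction from 2922 to 1877, 1529 and 1908 without endoderm cytoplasm replicate 1 or 2 or hPSC nucleus replicate 3.

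The main fits did not pair libraries by replicate number. In no comparison did every same-numbered pair correlate above 0.1. Between ectoderm chromatin and nucleoplasm, however, each library correlated best with the one of its own number, at r of 0.037 to 0.106. Pairing there is therefore not excluded. With the replicate block 110 of 114 results kept their call; ZIC2 in nucleus of ectoderm against hPSC (adjusted p = 0.088), NES between chromatin and nucleoplasm of endoderm (0.075), the OTX2 interaction (0.051) and the ZIC2 interaction (0.052) lost it, giving 0 called in endoderm chromatin against nucleoplasm, 0 in the ectoderm interaction and 1 in the endoderm interaction.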
